A study of Mus musculus with 12 samples.

Results

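The colony-stimulating factors and their receptors were followed as 8 listed genes, out of 20551 in the count table, in airway macrophages of mice with muco-obstructive lung disease and of healthy mice. The ligands were Csf1 (M-CSF), Csf2 (GM-CSF) and Csf3 (G-CSF), and the receptor genes were Csf1r, Csf2ra, Csf2rb, Csf2rb2 and Csf3r. All 8 were chosen by name, and all were found in the table. Wild-type (WT) littermates were set beside Scnn1b-transgenic (Scnn1b-Tg) mice, in which the promoter of the club cell secretory protein drives extra beta chain of the epithelial sodium channel in airway epithelium. The promoter is one of airway epithelial cells, not of macrophages. Both genotypes were on a C57BL/6 background and 6 weeks old. Each genotype gave 3 pools of 3 to 4 animals, numbered 16 to 18 for WT and 17 to 19 for Scnn1b-Tg, and the shared numbers denote different animals. Macrophages of each pool were cultured for 12 h in medium alone or with 100 ng/ml LPS of Pseudomonas aeruginosa, so that 6 pools gave 12 RNA-seq libraries in 4 groups of 3. The labels describe adherent lavage cells and the study's methods describe airway macrophages sorted by surface markers, with the purity checked in selected samples. Libraries were prepared in 2 batches, the first with WT pools 16 and 17 and Scnn1b-Tg pool 17 and the second with the others.

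The colony-stimulating factors are secreted proteins that control how macrophages and granulocytes form, survive and respond. M-CSF signals through CSF1R, a receptor tyrosine kinase carried by nearly all macrophages. GM-CSF signals through a ligand-binding alpha chain, encoded by Csf2ra, and a signalling beta chain, encoded by Csf2rb, and is the factor on which alveolar macrophages depend for their maturation through the transcription factor PPARγ and for clearing surfactant. Mice carry a further beta chain gene, Csf2rb2, whose product serves the interleukin 3 receptor. G-CSF signals through CSF3R and drives the production and release of neutrophils.

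Library totals ran from 48191248 to 60896505 deposited counts. These counts were converted from transcript coverage, which gives about 5 counts for a read pair. A floor of 8 counts was used, equal to 3 reads or 0.131 to 0.166 CPM (counts scaled to a common library size). Since the reads of a pair are not independent, a library at 0 still allows a level above this floor. The LPS libraries of WT pool 17 and of Scnn1b-Tg pool 17 stood apart from the other LPS libraries of their groups, with a chi-square per gene of up to 35.9 against them, where the others differed from each other by 10.4 in WT and 12.1 in Scnn1b-Tg, and values without them are given where they bear on a result. The medium library of WT pool 17 also stood apart, at 15.9 and 18.9 against pools 16 and 18, which differed by 8.1. It was left out only in the leave-one-out fits. All 10 airway macrophage markers were present, with a summed level of 8560 to 17381 CPM, most of it Chil3, which had group means of 7954 to 12600 CPM. With LPS they moved in both directions. In WT, Marco went from a mean of 631 to 1255 CPM and Car4 from 16.9 to 47.3 CPM, whereas Siglecf went from 115 to 11.1 CPM, and Mrc1, Fabp4, Ear2, Mertk and Pparg were lower as well. Markers of other cells were low beside these. The 7 epithelial markers still summed to 36.1 to 119 CPM, more than Csf1 or Csf3r reached in any library. Of 7 neutrophil markers in the table, S100a9 and Ngp did not exceed the floor. The 6 monocyte markers together reached at most 2.49 CPM. Of the mast cell and basophil markers, 2 were in the table and their sum stayed under 0.400 CPM, with Cpa3 at the floor. The 9 T, NK or innate lymphoid markers summed to 20.01 to 38.7 CPM in medium and to 137 to 223 CPM with LPS, of which Il7r made up nearly all, whereas Cd3e stayed at group means of 0.230 to 0.396 CPM. Scnn1b held 0 to 40 counts in WT and 4 to 29 in Scnn1b-Tg libraries, so these cells give no check of the genotype.

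To set the genes side by side, CPM were divided by the length of the merged exons of each gene. Csf1r, Csf2ra, Csf2rb and Csf2rb2 were among the most abundant transcripts of these cells and the ligands and Csf3r were far below them. Over the 12 libraries, Csf2ra was the highest, with a mean of 187 CPM per kb, and ranked at place 232 of 20132 genes with a symbol. Csf2rb followed with 102, Csf1r with 95.6 and Csf2rb2 with 89.4 CPM per kb, all 3 within the first 2.66% of genes. Csf1 stood at 2.44, Csf3r at 1.37, Csf3 at 0.527 and Csf2 at 0.0255 CPM per kb.

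In WT medium, Csf2ra reached 174 ± 23.1 CPM per kb (SD, n = 3, as for all group values). Csf2rb at 82.2 ± 1.97, Csf1r at 74.9 ± 10.9 and Csf2rb2 at 70.4 ± 1.92 CPM per kb came next. Csf1r lay within 1 SD of both of its neighbours in that order, whereas the alpha chain gene stood clear of the others. With LPS the order in WT was the same, with Csf2ra at 162 ± 20.5, Csf2rb at 118 ± 21.5, Csf1r at 112 ± 24.0 and Csf2rb2 at 103 ± 19.2 CPM per kb, and the last 3 differed by less than their spread. In both treatments the nearness of these 3 depends on the length used. Csf2rb has 7277 bp of merged exons but 4900 bp in its longest transcript, whereas Csf2rb2 has 4740 bp by either measure. In Scnn1b-Tg cells Csf2ra was likewise first, at 219 ± 31.1 CPM per kb in medium and 194 ± 16.9 with LPS.

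**Figure D1:**
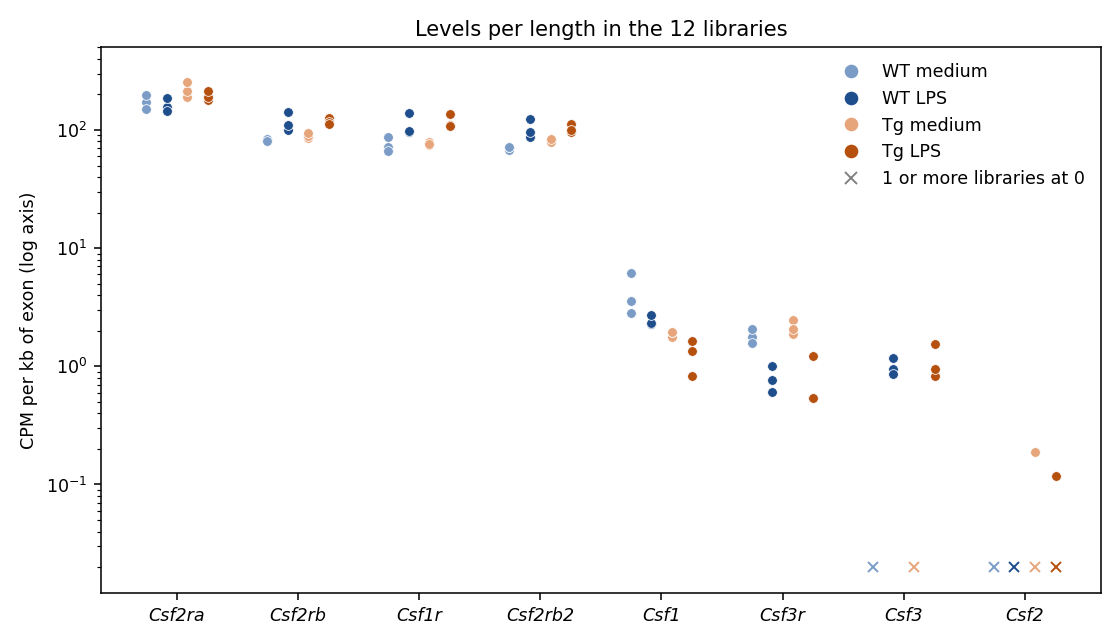
Levels of the 8 genes per length in all 12 libraries, on a log axis of CPM per kb of merged exon; each point is a library, coloured by group, and crosses mark groups with libraries at 0. Csf1r, Csf2ra, Csf2rb and Csf2rb2 lie between 66.2 and 253 CPM per kb, above Csf1, Csf3r and Csf3, and Csf2 is at 0 in most libraries.

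Of the 8 genes, 7 passed the filter on low counts and Csf2 did not. Csf3 passed only through its LPS libraries, so it had to differ and is left out of the counts with LPS. Of the other 6, edgeR's quasi-likelihood test called 3 higher with LPS in WT, beside 15.5% of all genes tested, and 2 lower, beside 16.2%. In Scnn1b-Tg, 3 were called higher, beside 19.3% of all genes, and 1 lower, beside 18.7%. The M-CSF receptor gene and both beta chain genes rose and Csf3r fell in both genotypes. In bulk samples such as these, fewer cells of a type and less RNA per cell cannot be told apart.

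Between genotypes, none of the 7 genes was called in medium by edgeR, where 0.168% of all genes were called higher in Scnn1b-Tg and 0.168% lower. At an unadjusted p under 0.05 there were 2, Csf1 and Csf2ra, beside 13.4% of all genes, and DESeq2 called 1, Csf1, beside 3.65%. With LPS, none of the 7 was called, beside 0.051% of all genes higher and 0.0% lower, while 1, Csf1, had an unadjusted p under 0.05, beside 7.12% of all genes, and was called by DESeq2, beside 1.06%. The difference of the LPS response between genotypes was called for none of the 6 genes other than Csf3, beside 0.0% of all genes. None had an unadjusted p under 0.05, beside 5.95% of all genes, or was called by DESeq2, beside 0.561%.

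**Figure D2:**
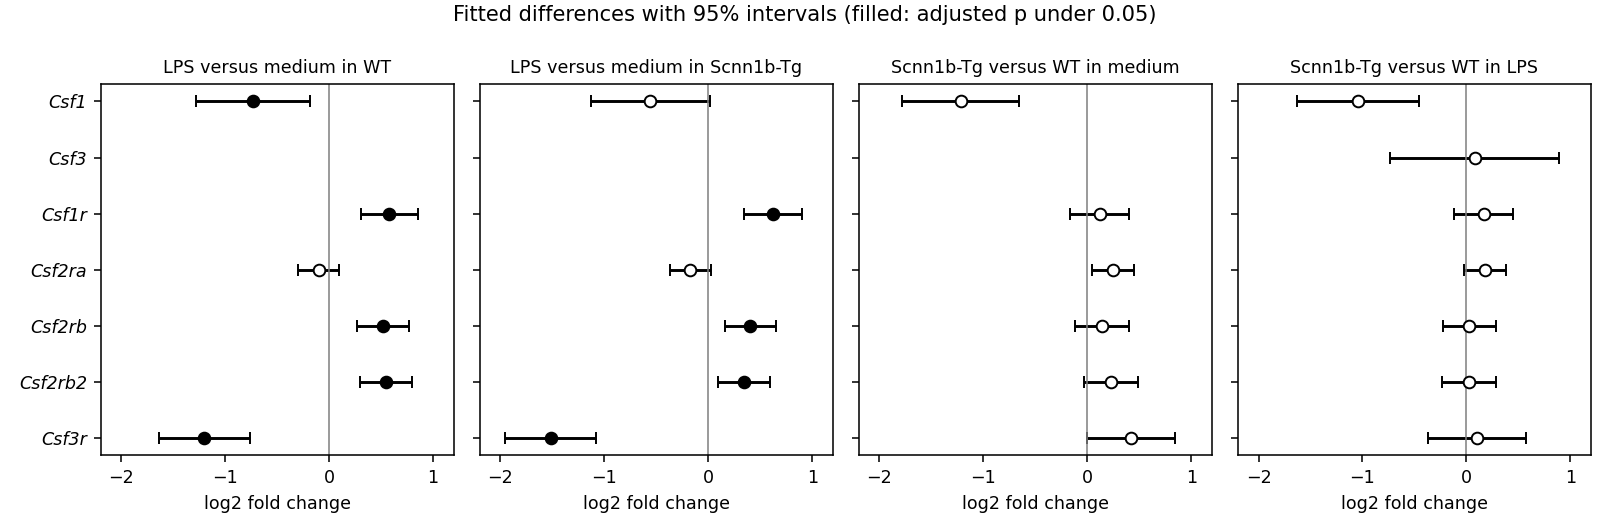
Fitted log2 fold changes with 95% intervals for LPS against medium in each genotype and for Scnn1b-Tg against WT in each treatment, from edgeR's fit to all 12 libraries; filled points have an adjusted p under 0.05. Csf3 is shown only for Scnn1b-Tg against WT in LPS, since its medium libraries were at 0, and Csf1 is the gene farthest below 0 between genotypes.

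Csf1, which lies on the minus strand at chr3:107741048-107760469 (mm10), was the only ligand gene above the floor in medium. In WT medium it measured 18.9, 14.8 and 32.4 CPM in pools 16, 17 and 18, and in WT with LPS 12.1, 12.3 and 14.5 CPM. In Scnn1b-Tg medium it measured 9.31, 10.2 and 10.3 CPM in pools 17, 18 and 19, and with LPS 7.10, 4.36 and 8.65 CPM. Every Scnn1b-Tg library lay below every WT library of the same treatment, and WT pool 18 in medium was far above all others. Csf1 was thus 2.33-fold lower in Scnn1b-Tg than in WT in medium, with a log2 fold change of -1.22 ± 0.26 (SE; 95% interval -1.78 to -0.65), an unadjusted p of 0.000609 and an adjusted p of 0.0797 by edgeR, which misses the threshold of 0.05. DESeq2 gave an adjusted p of 0.00116 for this difference. With LPS the difference was -1.04 ± 0.26 (95% interval -1.63 to -0.46), with an edgeR adjusted p of 0.259 and a DESeq2 adjusted p of 0.0222. Within the first batch, Scnn1b-Tg pool 17 was lower than the mean of 2 WT pools by 0.81 on the log2 scale in medium and by 0.74 with LPS, and within the second batch the mean of 2 Scnn1b-Tg pools was lower than WT pool 18 by 1.61 and 1.17. Without WT pool 18 in medium, the difference in medium was -0.84 with an edgeR adjusted p of 0.266, and without the LPS library of Scnn1b-Tg pool 18 it was called, at -1.24 with an adjusted p of 0.0262.

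The summed level of the epithelial cell markers was lower in Scnn1b-Tg as well. All 7 of them were above the floor, and their sum in medium was 85.7 to 109 CPM for WT against 41.6 to 73.7 CPM for Scnn1b-Tg. With LPS it was 80.5 to 119 CPM for WT against 36.1 to 67.3 CPM for Scnn1b-Tg, so that the genotypes did not overlap. Scgb1a1, the club cell secretory protein, made up much of this sum, with means in medium of 54.3 CPM for WT and 19.5 CPM for Scnn1b-Tg (edgeR adjusted p = 0.175). Cdh1 and Cldn18 lay the other way in medium, with means of 6.18 and 0.114 CPM for WT and 6.50 and 0.2005 CPM for Scnn1b-Tg, and edgeR called none of the 6 markers that passed the filter between genotypes in either treatment. Of 6 fibroblast and endothelial markers, 5 were above the floor and Col1a1 was not. Their sum lay the other way in medium, at 2.71 to 3.32 CPM in WT and 4.596 to 5.61 CPM in Scnn1b-Tg. Pdgfra made up most of it, with means of 2.889 CPM for WT and 4.596 CPM for Scnn1b-Tg (edgeR adjusted p = 0.156). With LPS the genotypes overlapped, at 6.11 to 8.76 CPM for WT and 6.699 to 10.48 CPM for Scnn1b-Tg, and most of the sum was Dcn. The part of epithelial, fibroblast or endothelial cells in the Csf1 difference was not tested.

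Csf1 was also lower with LPS in all 6 pools, with differences of -0.24 to -1.14 on the log2(CPM + 0.5) scale. In WT the decrease was called, with a log2 fold change of -0.73 ± 0.25 and an edgeR adjusted p of 0.0450. This call was lost when any of 9 single libraries was left out, and the change was -0.40 with an adjusted p of 0.264 without WT pool 18 in medium. It was also lost without both LPS libraries of pools 17, where the adjusted p was 0.0714. In Scnn1b-Tg the change was -0.56 ± 0.26 with an adjusted p of 0.119. The responses of the genotypes differed by 0.17 on the log2 scale (95% interval -0.62 to 0.97).

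Csf3, at chr11:98701263-98703629 on the plus strand, had 0 counts in all 6 medium libraries. With LPS it held 67, 96 and 65 counts in WT pools 16, 17 and 18, or 1.34, 1.67 and 1.23 CPM. In Scnn1b-Tg pools 17, 18 and 19 it held 66, 115 and 71 counts, or 1.16, 2.19 and 1.35 CPM. Every pool thus moved from none to a level well above 8 counts. Set against 8 counts in each medium library, the mean with LPS was 9.06-fold higher in WT and 10.7-fold higher in Scnn1b-Tg. These folds are not lower bounds, since a library at 0 still allows more than 8 counts. No test of this rise is given, since the gene passed the filter only through the libraries in which it is high. With LPS, the genotypes overlapped and differed by 0.08 ± 0.34 on the log2 scale (95% interval -0.73 to 0.89). Even so, Csf3 was a rare transcript, at 0.998 ± 0.161 CPM per kb in WT and 1.11 ± 0.387 in Scnn1b-Tg with LPS.

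Csf2, at chr11:54247271-54249667 on the minus strand, was not detected above the floor in any library. All 6 WT libraries and the libraries of Scnn1b-Tg pools 17 and 18 were at 0, and Scnn1b-Tg pool 19 held 8 counts in medium and 5 with LPS. At this depth a level of 0.131 to 0.166 CPM or somewhat more could have gone unseen. No test was made.

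The mRNAs of Csf2 and Csf3 share AU-rich elements, runs of the pentamer ATTTA in the 3′ untranslated region to which decay proteins such as tristetraprolin (Zfp36) bind. The 30 bases with the most such pentamers are shown for each ligand from the GENCODE M21 transcripts, 5′ to 3′, with the pentamers in capitals.
Csf1: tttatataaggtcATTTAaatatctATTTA
Csf2: tttttaaatATTTATTTATTTATTTATTTA
Csf3: gatagtttATTTAtctctATTTAatATTTA
The window of Csf2 holds 5 overlapping pentamers, that of Csf3 holds 3 and that of Csf1 holds 2. Windows with at least as many were found in the 3′ untranslated regions of 0.274%, 2.59% and 18.9% of 20829 genes. The match is a feature of the letters and was not measured in these cells.

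Csf1r, at chr18:61100598-61132149 on the plus strand, rose with LPS in every pool. In WT it went from 412 to 560 CPM in pool 16, from 503 to 805 CPM in pool 17 and from 382 to 570 CPM in pool 18. In Scnn1b-Tg it went from 460 to 791 CPM in pool 17, from 429 to 642 CPM in pool 18 and from 442 to 627 CPM in pool 19. No medium library reached the lowest LPS library, and with LPS both pools 17 were highest. The log2 fold change was 0.58 ± 0.12 in WT (1.49-fold, edgeR adjusted p = 0.00444) and 0.62 ± 0.12 in Scnn1b-Tg (1.54-fold, edgeR adjusted p = 0.00231). Without both LPS libraries of pools 17 it was 0.41 in WT and 0.56 in Scnn1b-Tg, with adjusted p of 0.0145 and 0.00273. The genotypes overlapped in both treatments, and differed by 0.12 ± 0.13 in medium and by 0.17 ± 0.13 with LPS. Exons of Hmgxb3 on the other strand overlap those of Csf1r by 873 bp, and since counting did not use strand, reads there cannot be assigned to either gene with certainty. Per length, transcripts of the receptor outnumbered those of its ligand Csf1 by 20.6 ± 10.2 to 1 in WT medium, 46.1 ± 12.4 in WT with LPS, 40.9 ± 3.67 in Scnn1b-Tg medium and 101 ± 34.3 in Scnn1b-Tg with LPS. The ranges of the genotypes did not overlap in either treatment, and the exact two-sided permutation p was 0.1, the smallest that 3 against 3 libraries allow.

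The GM-CSF receptor is encoded by genes that behaved in 2 ways. Csf2ra, the alpha chain gene at chr19:61223957-61228429 on the minus strand, measured 499, 433 and 566 CPM in WT pools 16, 17 and 18 in medium and 450, 417 and 531 CPM with LPS. In Scnn1b-Tg pools 17, 18 and 19 it measured 550, 611 and 726 CPM in medium and 515, 544 and 610 CPM with LPS. The level was slightly lower with LPS in all 6 pools, by 0.06 to 0.25 on the log2(CPM + 0.5) scale, while the groups overlapped. The fitted changes were -0.10 ± 0.09 in WT and -0.17 ± 0.09 in Scnn1b-Tg, with edgeR adjusted p of 0.437 and 0.157. When each pool was fitted as a block, the decrease in Scnn1b-Tg passed the threshold, at -0.17 with an adjusted p of 0.0347. Csf2ra was higher in Scnn1b-Tg than in WT in medium by 0.25 ± 0.09 on the log2 scale, at an unadjusted p of 0.0209 and an edgeR adjusted p of 0.274. It was higher in Scnn1b-Tg by 0.24 within the first batch and by 0.23 within the second.

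Csf2rb, the beta chain gene at chr15:78325752-78353847 on the plus strand, rose in every pool. In WT it went from 588 to 732 CPM in pool 16, from 614 to 1032 CPM in pool 17 and from 592 to 805 CPM in pool 18. In Scnn1b-Tg it went from 622 to 918 CPM in pool 17, from 649 to 858 CPM in pool 18 and from 685 to 818 CPM in pool 19. The medium and LPS groups did not overlap in either genotype. The log2 fold change was 0.52 ± 0.11 in WT (1.43-fold, edgeR adjusted p = 0.00461) and 0.41 ± 0.11 in Scnn1b-Tg (1.32-fold, edgeR adjusted p = 0.0148). In Scnn1b-Tg the call was lost without the medium library of pool 17 (0.34, adjusted p = 0.0793) or without its LPS library (0.37, adjusted p = 0.0610). Without both LPS libraries of pools 17 the changes were 0.35 in WT and 0.34 in Scnn1b-Tg, with adjusted p of 0.00650 and 0.00681.

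Csf2rb2, at chr15:78282507-78305721 on the minus strand, lies 20030 bp from Csf2rb and followed it closely. In WT it went from 323 to 417 CPM in pool 16, from 338 to 591 CPM in pool 17 and from 340 to 457 CPM in pool 18. In Scnn1b-Tg it went from 377 to 535 CPM in pool 17, from 378 to 459 CPM in pool 18 and from 400 to 472 CPM in pool 19. Again the medium and LPS groups did not overlap and pools 17 were highest with LPS. The log2 fold change was 0.55 ± 0.11 in WT (1.46-fold, edgeR adjusted p = 0.00373) and 0.34 ± 0.11 in Scnn1b-Tg (1.27-fold, edgeR adjusted p = 0.0355). The call in Scnn1b-Tg was lost when any of 7 single libraries was left out, with adjusted p of up to 0.143 without the medium library of pool 17. Without both LPS libraries of pools 17 the changes were 0.38 in WT and 0.25 in Scnn1b-Tg, with adjusted p of 0.00305 and 0.0212. Between Scnn1b-Tg and WT in medium the differences of the beta chain genes were small, at 0.14 ± 0.12 for Csf2rb and 0.23 ± 0.12 for Csf2rb2, and neither was called.

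These neighbouring genes are near copies of each other. Their coding sequences, of 2691 bases for Csf2rb and 2637 bases for Csf2rb2, were identical at 95.2% of 2631 aligned bases. A stretch of 150 bases in which they do not differ, at coding positions 2083 to 2232 of both, is shown because a read of 125 bases from it fits either gene.
Csf2rb and Csf2rb2: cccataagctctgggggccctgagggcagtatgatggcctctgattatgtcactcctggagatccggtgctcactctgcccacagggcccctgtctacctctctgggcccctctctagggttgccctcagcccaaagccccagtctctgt
The ungapped stretch of 150 bases with the most differences, 25, starts at coding position 300 of Csf2rb and 303 of Csf2rb2, and the bases that differ are in capitals.
Csf2rb: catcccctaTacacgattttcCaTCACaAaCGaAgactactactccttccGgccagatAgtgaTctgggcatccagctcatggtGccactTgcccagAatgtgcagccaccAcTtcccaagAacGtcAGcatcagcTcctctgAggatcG
Csf2rb2: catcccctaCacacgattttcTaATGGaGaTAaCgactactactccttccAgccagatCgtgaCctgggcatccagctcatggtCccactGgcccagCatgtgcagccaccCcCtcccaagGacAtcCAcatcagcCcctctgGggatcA
Only 4.98% of all windows of 125 bases in the longest coding transcript of Csf2rb, 238 of 4776, were found unchanged in a transcript of Csf2rb2, so most of their reads can be told apart, while the counts of the pair remain uncertain where they cannot.

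The share of Csf2rb2 among the counts of the pair lay at 34.8% to 37.7% over the 12 libraries. It was 35.8 ± 0.55% in WT medium, 36.3 ± 0.10% in WT with LPS, 37.1 ± 0.50% in Scnn1b-Tg medium and 36.1 ± 1.10% in Scnn1b-Tg with LPS. In medium the ranges of the genotypes did not overlap, with 35.5% to 36.5% for WT and 36.8% to 37.7% for Scnn1b-Tg, at an exact two-sided permutation p of 0.1, the smallest that 3 against 3 libraries allow. With LPS the genotypes overlapped. Alpha chain transcripts per beta chain transcript, taken as Csf2ra over the sum of Csf2rb and Csf2rb2, each per length, went from 1.14 ± 0.16 to 0.76 ± 0.19 with LPS in WT and from 1.28 ± 0.13 to 0.88 ± 0.13 in Scnn1b-Tg. The ranges of medium and LPS did not overlap in either genotype (exact permutation p = 0.1 for each). Between genotypes they overlapped. This ratio is not that of the GM-CSF receptor alone, and 1 reason is that the product of Csf2rb2 serves the interleukin 3 receptor.

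**Figure D3:**
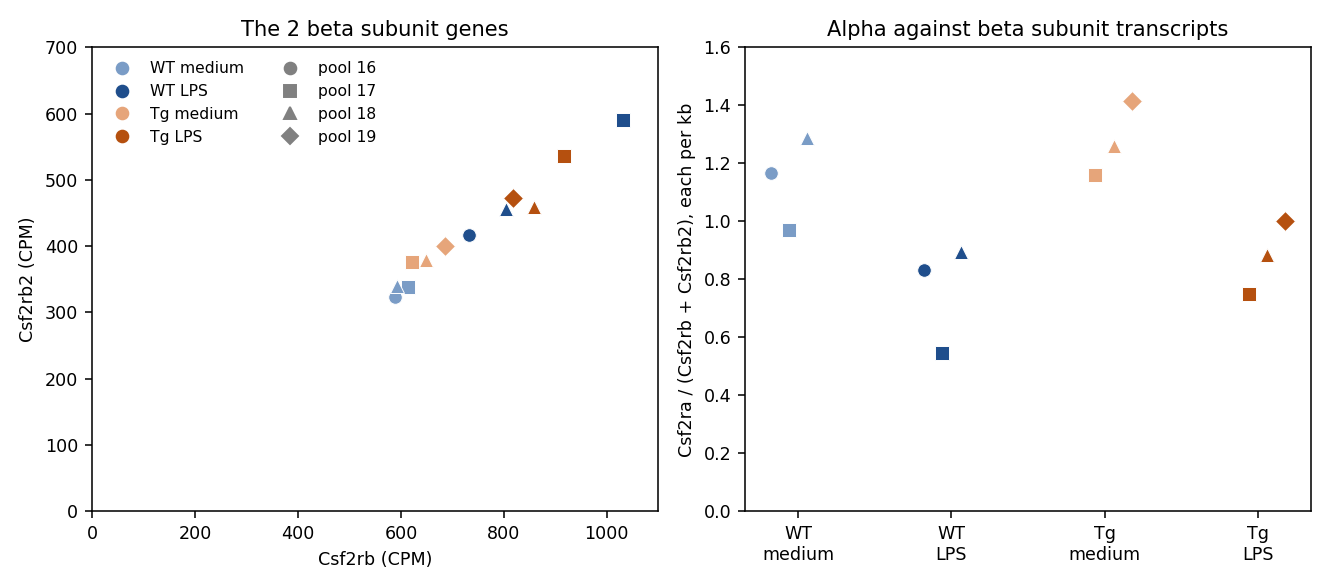
Left, the level of Csf2rb2 against Csf2rb in CPM in each of the 12 libraries, coloured by group and with a symbol for each pool number; right, Csf2ra over the sum of the beta chain genes, each per kb, in the 4 groups. The points on the left lie along a line, with Csf2rb2 at 34.8% to 37.7% of the pair, and the ratio on the right lies at 0.54 to 0.89 with LPS against 0.97 to 1.29 in medium in WT, and at 0.75 to 1.00 against 1.16 to 1.42 in Scnn1b-Tg.

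Csf3r, the G-CSF receptor gene at chr4:126024550-126044440 on the plus strand, was low and fell with LPS. It measured 6.41, 7.54 and 5.65 CPM in WT pools 16, 17 and 18 in medium and 2.78, 3.61 and 2.19 CPM with LPS. In Scnn1b-Tg pools 17, 18 and 19 it measured 8.87, 6.71 and 7.40 CPM in medium and 4.44, 1.94 and 1.94 CPM with LPS. No LPS library reached a medium library of its genotype. The log2 fold change was -1.20 ± 0.20 in WT (2.30-fold lower, edgeR adjusted p = 0.000831) and -1.52 ± 0.20 in Scnn1b-Tg (2.86-fold lower, edgeR adjusted p = 0.000113). Both calls held under each alternative that was run, with log2 changes of -1.07 to -1.34 in WT and -1.39 to -1.87 in Scnn1b-Tg. The genotypes overlapped in both treatments, with differences of 0.42 ± 0.19 in medium and 0.11 ± 0.21 with LPS, neither of which was called.

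Csf3r is best known from neutrophils, and their markers were set beside it. The summed level of the 7 markers in the table was 13.1 to 18.6 CPM in WT medium and 12.8 to 13.9 CPM with LPS. In Scnn1b-Tg it was 19.95 to 28.98 CPM in medium and 14.99 to 20.01 CPM with LPS. The members did not move together. Cxcr2, a receptor for neutrophil chemokines, fell with Csf3r, with WT means of 4.01 CPM in medium and 0.186 CPM with LPS and Scnn1b-Tg means of 7.50 and 0.232 CPM (log2 fold changes of -4.41 ± 0.47 and -4.98 ± 0.42). S100a8, a subunit of calprotectin, rose, with WT means of 2.87 and 7.32 CPM and Scnn1b-Tg means of 4.53 and 11.1 CPM, whereas its partner S100a9 stayed at the floor. The part of neutrophils in the level of Csf3r was not tested.

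**Figure D4:**
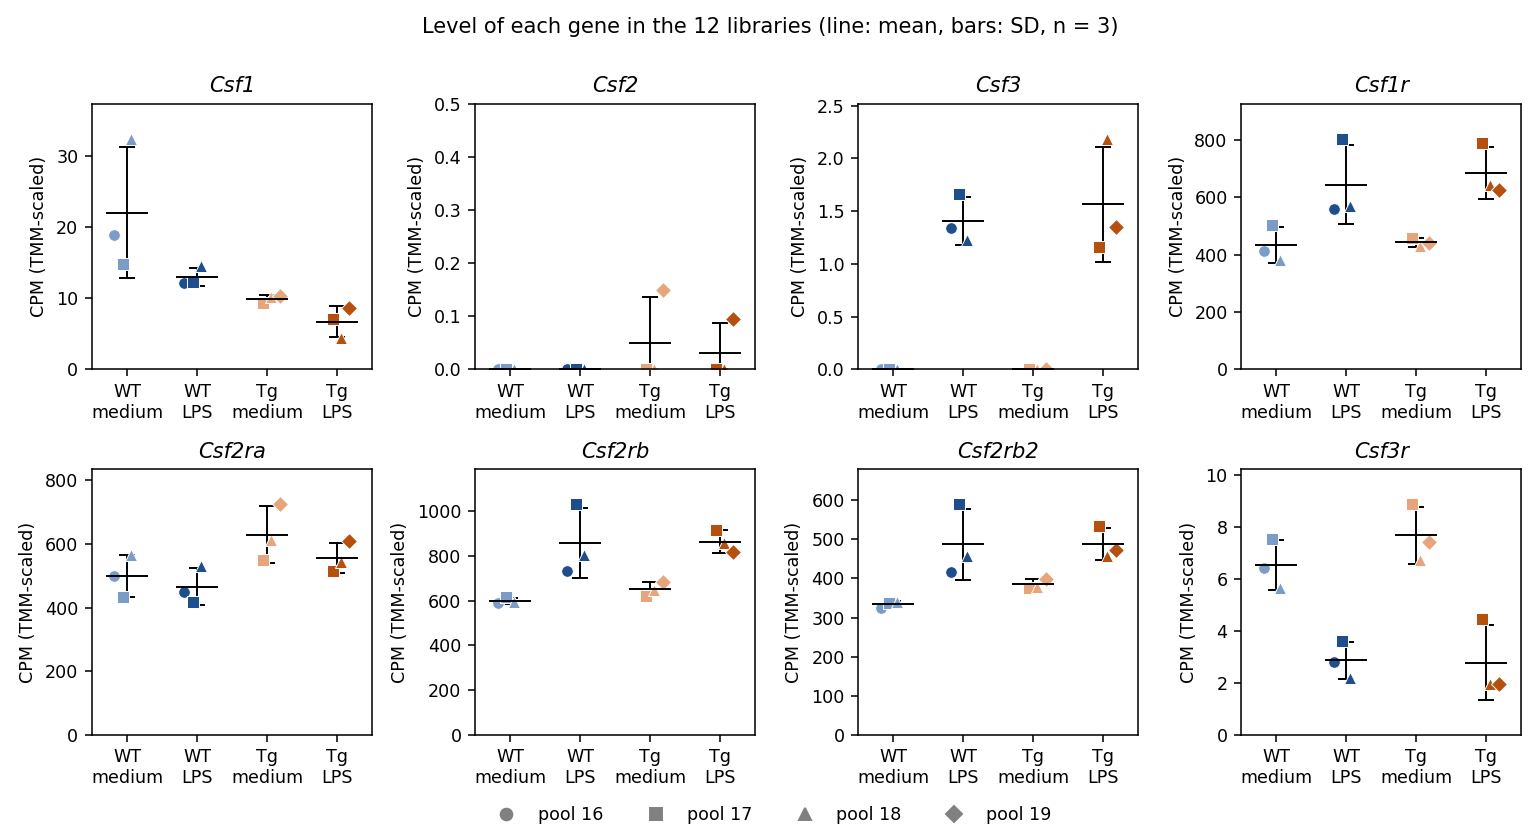
CPM of each of the 8 genes in the 4 groups; each symbol is a library, its shape gives the pool number, and lines and bars give the mean and SD of 3 libraries. Csf1r, Csf2rb and Csf2rb2 are higher and Csf3r lower with LPS without overlap, Csf3 is at 0 in medium, Csf2 is at or below 0.149 CPM throughout, and Csf1 is lower in Scnn1b-Tg in both treatments.

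**Figure D5:**
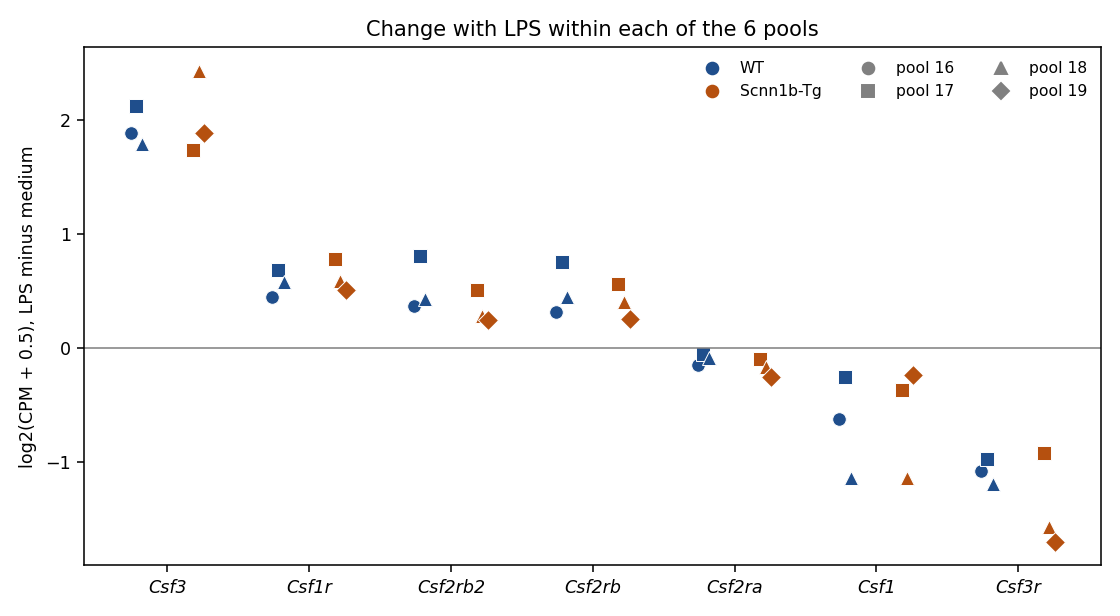
Difference of log2(CPM + 0.5) between the LPS and medium libraries of the same pool, for the 7 genes past the filter; blue points are WT and orange points Scnn1b-Tg pools. Csf3, Csf1r, Csf2rb and Csf2rb2 are above 0 and Csf2ra, Csf1 and Csf3r below 0 in all 6 pools, with Csf2ra nearest to 0.

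The promoters of 5 of the 8 genes, those of Csf1, Csf2, Csf2ra, Csf2rb2 and Csf3r, were in the RefSeq windows for GRCm38.p6, which run from 250 bases before to 50 bases after the start of a gene. The windows of the 3 receptor genes among them are shown 5′ to 3′ on the strand of the gene, with the core letters of the motif of the macrophage factor PU.1, GAGGAA on either strand, in capitals.
Csf2ra, chr19:61228369-61228668, minus strand: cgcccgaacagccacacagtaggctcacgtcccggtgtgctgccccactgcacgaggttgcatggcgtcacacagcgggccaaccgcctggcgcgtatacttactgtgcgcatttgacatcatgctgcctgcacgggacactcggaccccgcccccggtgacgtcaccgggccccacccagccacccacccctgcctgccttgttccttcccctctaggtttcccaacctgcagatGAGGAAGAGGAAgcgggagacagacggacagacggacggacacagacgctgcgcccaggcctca
Csf2rb2, chr15:78305672-78305971, minus strand: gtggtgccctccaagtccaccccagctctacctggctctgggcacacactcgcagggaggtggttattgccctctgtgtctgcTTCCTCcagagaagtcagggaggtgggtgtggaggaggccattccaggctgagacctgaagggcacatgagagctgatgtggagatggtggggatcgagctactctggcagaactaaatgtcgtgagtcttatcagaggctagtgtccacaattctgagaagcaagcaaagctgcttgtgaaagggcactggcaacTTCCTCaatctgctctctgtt
Csf3r, chr4:126024409-126024708, plus strand: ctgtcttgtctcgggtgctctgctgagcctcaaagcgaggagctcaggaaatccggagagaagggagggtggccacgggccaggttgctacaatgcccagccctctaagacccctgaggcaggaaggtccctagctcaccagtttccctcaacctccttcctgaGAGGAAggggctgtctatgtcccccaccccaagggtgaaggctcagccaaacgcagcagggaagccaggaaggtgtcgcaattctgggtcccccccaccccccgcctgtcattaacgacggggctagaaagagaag
These letters occurred in these 3 windows and not in those of Csf1 and Csf2, beside 28.3% of 32851 promoters. Of 4 other motifs searched on both strands, AP-1 (TGANTCA) was in none of the 5 windows, beside 7.81% of all. A cyclic AMP response element (TGACGTCA) was in that of Csf2ra, beside 1.79%. A C/EBP motif (TTGCNNAA) was in that of Csf2, beside 10.8%. A loose NF-κB motif, 3 G and 2 C with any 5 bases between, was in 4 windows, all but that of Csf2rb2, beside 50.8%, and its matches on opposite strands often overlap. The start used by RefSeq lies 232 bp upstream of that of GENCODE for Csf2 and 109 bp downstream for Csf3r.

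Genes of the pathways around these receptors were taken from 5 lists with 59 names, of which 52 passed the filter. With LPS in WT, 12 (23.1%) were called higher by edgeR, beside 15.5% of all genes tested, and 11 (21.2%) lower, beside 16.2%, with a median log2 fold change of 0.04 beside 0.00. In Scnn1b-Tg, 15 (28.8%) were higher, beside 19.3% of all genes, and 12 (23.1%) lower, beside 18.7%, with a median of 0.07 beside -0.02. Between genotypes none was called by edgeR in either treatment. An unadjusted p under 0.05 was found for 8 (15.4%) in medium and 4 (7.69%) with LPS, near the 13.4% and 7.12% of all genes. DESeq2 called 4 in medium, where it called 3.65% of all genes, and 1 with LPS, where it called 1.06%. The same shares of all genes apply to the counts of each list.

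Among 16 signalling proteins, 3 rose and 1 fell in WT, and 4 rose and 2 fell in Scnn1b-Tg. Jak2, the kinase bound to the beta chain, rose by 2.04 ± 0.09 on the log2 scale in WT, with 38.6 ± 4.61 CPM in medium and 158 ± 14.0 CPM with LPS, and by 2.22 ± 0.09 in Scnn1b-Tg. The phosphatase gene Ptpn11 rose by 0.34 ± 0.10 and 0.30 ± 0.10. The call of Ptpn11 in WT was lost without the medium library of pool 16 or the LPS library of pool 17 or 18 (adjusted p of 0.0505 to 0.0743), in a fit of the 2 groups alone (0.0591) and without both LPS libraries of pools 17, where the change was 0.22. In Scnn1b-Tg it was lost when any 1 of the 6 libraries of that genotype was left out, with adjusted p of 0.0524 to 0.134. Tyrobp, the adaptor DAP12, had 1058 ± 171 CPM in WT medium and 447 ± 143 CPM with LPS (log2 fold change -1.26 ± 0.23), and its change in Scnn1b-Tg was -1.53 ± 0.23.

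Of 11 inhibitors of these receptors, 4 rose and 2 fell in WT, and 3 rose and 1 fell in Scnn1b-Tg. Socs3, which blocks JAK kinases and the G-CSF receptor, rose by 4.22 ± 0.15 in WT, where it had 4.81 ± 0.91 CPM in medium and 89.5 ± 17.7 CPM with LPS, and by 4.29 ± 0.15 in Scnn1b-Tg, where it had 5.30 ± 0.11 and 105 ± 15.9 CPM. Socs1 rose by 2.64 ± 0.17 and 3.07 ± 0.17. The changes of Inpp5d, the lipid phosphatase SHIP1, were -0.58 ± 0.14 and -0.82 ± 0.14.

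Of 14 transcription factors and targets, 3 rose and 5 fell in both genotypes. Pparg, the factor through which GM-CSF matures alveolar macrophages, fell to 28.9 ± 1.34 CPM from 122 ± 1.05 CPM in WT (-2.08 ± 0.07 on the log2 scale) and to 26.6 ± 0.84 CPM from 152 ± 7.94 CPM in Scnn1b-Tg (-2.51 ± 0.07). Cebpa changed by -0.98 ± 0.11 and -1.26 ± 0.11. Pim1, a kinase gene induced by cytokine receptors, rose by 1.57 ± 0.17 and 1.33 ± 0.17, and Egr2 and Cebpb rose by 0.42 to 0.56.

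Of 9 genes of receptor shedding and mRNA decay, 2 rose and 3 fell in WT, and 4 rose and 4 fell in Scnn1b-Tg. Zc3h12a, the ribonuclease Regnase-1, rose by 3.27 ± 0.16 in WT, with 19.5 ± 3.16 CPM in medium and 188 ± 19.5 CPM with LPS, and by 3.13 ± 0.16 in Scnn1b-Tg. Rhbdf2, a partner of the sheddase ADAM17, rose by 0.72 ± 0.12 and 0.93 ± 0.12. The changes of the decay factors Zfp36l1 and Zfp36l2 in WT were -2.07 ± 0.24 and -1.16 ± 0.09, and that of the sheddase Adam10 was -0.70 ± 0.16, a call lost with no batch term (adjusted p = 0.0896). Of the 9 related ligands and receptors, 6 were in the table and 2 passed the filter, Il3ra and Kitl. None of them was called in WT, and in Scnn1b-Tg Kitl, the ligand of KIT, was called higher, by 0.99 ± 0.26 on the log2 scale. This call was lost without the medium library of pool 17 or 19 or the LPS library of pool 17 (adjusted p of 0.0504 to 0.0574), and without both LPS libraries of pools 17 (0.0589). All changes named for these lists are from edgeR, with adjusted p from 3.36e-09 for Pparg in Scnn1b-Tg to 0.0309 for Ptpn11 in Scnn1b-Tg.

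Likeness to the members was measured as Pearson's r of log2(CPM + 0.5) over the 12 libraries after subtracting the mean of each treatment, among about 9101 genes with a mean of at least 5 CPM. These libraries share pools, batches and depth, so the values are descriptions. For both beta chain genes the most similar gene was the other one, with r = 0.95. Csf1r was most like Stk38 (r = 0.98), Plod1 (0.97) and Syk (0.96), the last a kinase of myeloid signalling. Csf1 was most like Fam181b (0.92), Prdx6 (0.91), a peroxiredoxin, and Gss (0.91), the glutathione synthetase. Csf2ra was most like Alg12, Tmem140 and Psmb9, with r of 0.95 each. Csf3r was most like Ctnnb1, which encodes beta-catenin, Pdxk and Dock1 (0.96 to 0.97), and Csf3 like Capns1, Ppp2r3c and Tstd3 (0.79 to 0.84). As Csf3 was at 0 in every medium library, its r rests on the LPS libraries alone. Among the members themselves, Csf1r varied with Csf2rb (0.79), Csf3r (0.75) and Csf2rb2 (0.74), and Csf2ra with none of them above 0.16.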

How the data were processed

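RNA-seq of 12 libraries was analyzed from the deposited table of expected counts for 20551 genes. According to the submitters' notes and the study's methods, the authors aligned paired reads of 125 bp to mm10 with HISAT2, without strand, and derived these estimated counts from StringTie coverage. They were rounded where needed. Groups came from the labels. Counts were fitted with edgeR 4.0.16 (R 4.3.3; quasi-likelihood, filterByExpr with a minimum of 10 counts and a total of 15, TMM, terms for group and batch), and the Benjamini-Hochberg adjustment ran over 13729 genes. CPM are TMM-scaled. Alternatives used DESeq2 1.42.0, other filters and scalings, other terms and libraries left out. For the pool block, edgeR fitted each pool as a fixed term for the LPS changes and the interaction. Between genotypes, limma 3.58.1 (voom) fitted the pool as a random effect. Gene positions and lengths are from GENCODE M21 (mm10), promoters from RefSeq.

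Libraries of the same pool deviated together (r = 0.21 to 0.50 in 6 pools); each pool gave both libraries, so they are pairs. The main edgeR fit did not use this pairing, and the pool was a block in an alternative. With 3 libraries a group, the p-values of the main fit rest on the spread between libraries within groups, shared over the 4 groups. Bounds cover counting error only. Members, gene lists, marker lists and motifs were chosen with earlier results of these data known. Named list genes were up to 3 rises and 3 falls per list, the largest in WT among genes called alike in both genotypes with a mean of at least 1 CPM. Kitl and the marker genes were named after their values were seen. Genes of the lists without a row (Il3, Il5ra, Flt3l, Ly6g, Retnlg, Elane, Ncr1, Ms4a2, Fcer1a and Mcpt8) were not analysed here. The values of some genes of the lists are not reported here.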

Additional observations from a re-analysis of the deposited data

How the results depend on the processing

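The limits are those of 3 libraries a group. Csf3 had to differ with LPS and is left out of the LPS calls here too. Under 10 alternatives outside the leave-one-out fits, Csf1r, Csf2rb, Csf2rb2 and Csf3r were called in both genotypes each time. Csf1 in WT was called in 6 of them. In 12 leave-one-out fits, Csf1r and Csf3r were called each time in both genotypes. Csf2rb and Csf2rb2 were called in all 12 in WT and in 10 and 5 in Scnn1b-Tg, and Csf1 in WT in 3. Over all genes these fits called 3317 of 14002 to 4368 of 14066 in WT. In Scnn1b-Tg they called 4268 of 14023 to 5517 of 14066. Between genotypes edgeR called 0 members, DESeq2 called 1, Csf1, in medium and with LPS, and leaving out 1 library gave 0 to 1 in medium. DESeq2 also called 4 pathway genes in medium (among them Dok1, Pparg and Zfp36l2), 1 with LPS (Kitl) and 2 in the interaction (among them Pparg), where edgeR called 0; over all genes it called 501 against 46 in medium and 146 against 7 with LPS. The fall of Csf1 in WT was not called with no filter (-0.70), no batch term (-0.77) or the label number as a replicate block (-0.74), and was called with the pool as a replicate block (-0.71, adjusted p = 0.0247). Beside Csf2ra in Scnn1b-Tg, the pool block changed no other call of a member. Uncalled differences near 0 turned sign. For Scnn1b-Tg against WT in LPS, Csf2rb was -0.034 and Csf2rb2 -0.055 with the number block, Csf3r was -0.041 with no batch term and -0.19 without both LPS libraries of pools 17, which were left out after the data were seen. Leaving out 1 library gave -0.37 to 0.52 for Csf3, -0.066 to 0.17 for Csf2rb, -0.076 to 0.16 for Csf2rb2 and -0.30 to 0.21 for Csf3r. For the interaction it gave -0.16 to 0.45 for Csf1, -0.080 to 0.20 for Csf1r, -0.13 to 0.0032 for Csf2ra and -0.22 to 0.048 for Csf2rb; Csf1 was -0.014 without both LPS libraries of pools 17. With longest transcripts in place of merged exons, Csf2ra was 236 and Csf2rb 152 CPM per kb. Csf2rb2 stayed at 89.4 CPM per kb, so that Csf2rb no longer lay close to it. With no mean subtracted, 0 of the 3 most similar genes of Csf1 and Csf3 remained, 1 of those of Csf1r, Csf2ra, Csf2rb and Csf2rb2 each, and 2 of those of Csf3r. The cause of these changes was not tested.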
